A study of Mus musculus with 8 samples.

Results

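Rora, Maf, Ahr, Stat3, Il17f, Il1rn, Ccr6, Tmem176a and Tmem176b are 9 genes of the Th17 program, followed here in mouse CD4+ T cells that were cultured toward an induced regulatory T cell (iTreg) fate. All 9 were found by gene symbol among the 11911 genes of a single count table, and all 9 were among the 11317 genes that passed a filter on low counts. The genes were selected on their higher RNA in the knockout libraries, as genes linked to the Th17 program, and that selection used the same 8 libraries. Their differences between genotypes are therefore given as a description, with a standard error and no p. How many of them a test called is stated once, beside the share of all genes called where that was counted.

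Naïve CD4+ T cells from spleen were kept for 36 hours with TGF-β and hamster antibodies to CD3 and CD28, while IFN-γ and IL-4 were blocked with antibodies. The 4 control libraries came from Foxp3YFP-Cre mice (labelled WT), which carry a fusion of YFP and Cre at the Foxp3 locus, and the 4 knockout libraries from Tdrd3fl/fl/Foxp3YFP-Cre mice (labelled KO), which carry the same Cre together with a floxed Tdrd3 gene. TDRD3 is a Tudor domain protein that reads methylated arginine and acts as a transcriptional coactivator. Cre was thus present in both genotypes, and in the knockout cultures it could delete Tdrd3 only in cells that had begun to transcribe Foxp3. RNA came from all CD4+ cells harvested, and no sort for YFP+ cells was described, so the RNA may include that of cells without Foxp3. The study's methods name 3 mice per genotype whereas the labels give 4 libraries per genotype, and all 8 libraries were used. The age of the mice was not given in the sources used here.

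Naïve CD4+ T cells that receive TGF-β can take either of a pair of opposed fates. With TGF-β alone they tend to induce Foxp3 and become iTregs, and with TGF-β and an inflammatory cytokine such as IL-6 they become Th17 cells. Foxp3 restrains the Th17 program. Within the Th17 program STAT3 carries the signal of IL-6, IL-21 and IL-23, the nuclear receptor RORα (Rora) promotes Th17 genes, c-MAF and AHR are further transcription factors of these cells, and IL-17F and the chemokine receptor CCR6 are among the products.

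The listed genes summed to between 13258239 and 16001676 estimated counts per library, and 3 counts corresponded to between 0.188 and 0.225 CPM (counts scaled to a common library total after TMM normalization). The targeted gene Tdrd3 had 18.8, 15.1, 9.95 and 17.7 CPM in control libraries 1 to 4 and 13.7, 10.7, 12.9 and 11.1 CPM in knockout libraries 1 to 4. The library labelled control 3 thus had less Tdrd3 RNA than every knockout library, and results are also given without it. Markers of CD4 T cells (7 of 7 measured, among them Cd4 and Cd3e) summed to between 1966.5 and 2072.5 CPM in controls and between 1958.9 and 2011.1 CPM in knockouts, and 0 genes of that list were called by edgeR's adjusted p (1 lower at an unadjusted P under 0.05). Foxp3 and the other 6 Treg markers were all measured and summed to between 3678.5 and 3822.8 CPM in controls and between 3448.7 and 3578.5 CPM in knockouts. The defining markers of the labelled cell type were thus measured in every library.

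Among the transcription factors, Rora encodes the nuclear receptor RORα and lies on the plus strand at chr9:68561068-69295528 (GRCm39). Its RNA stood at 71.4, 61.3, 58.6 and 70.6 CPM in control libraries 1 to 4 and at 79.9, 64.1, 69.2 and 82.9 CPM in knockout libraries 1 to 4. Above all controls lay knockout libraries 1 and 4, and knockout libraries 2 and 3 lay inside the control range. The mean was 65.5 ± 6.50 CPM (SD, n = 4) in controls and 74.0 ± 8.83 CPM (SD, n = 4) in knockouts, and the log2 fold change was 0.18 (standard error 0.0800).

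Maf, on the minus strand at chr8:116409632-116434579, encodes c-MAF, a basic leucine zipper factor. It had 11.6, 11.6, 14.3 and 21.2 CPM in control libraries 1 to 4, and 28.5, 17.05, 20.1 and 32.7 CPM in knockout libraries 1 to 4. Control libraries 1, 2 and 3 were below every knockout library, but control 4 was above knockout libraries 2 and 3, so the genotypes overlapped. The log2 fold change of Maf was 0.74 (standard error 0.189), and the means were 14.7 ± 4.55 CPM (SD, n = 4) and 24.6 ± 7.27 CPM (SD, n = 4).

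Ahr, on the minus strand at chr12:35547973-35585057, encodes the aryl hydrocarbon receptor, a ligand-activated factor. Ahr RNA was 175, 160, 148 and 194 CPM in the controls and 205, 146, 180 and 205 CPM in the knockouts, each in the order of library 1 to 4. Knockout 2 was the lowest of all 8 libraries and knockout libraries 1 and 4 the highest. The log2 fold change of 0.12 had a standard error of 0.0881.

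Stat3 (minus strand, chr11:100775924-100830450) was the most abundant of the 9 genes. Its values were 765, 795, 653 and 662 CPM in the controls and 819, 689, 743 and 802 CPM in the knockouts. Both genotypes covered much the same range, and the log2 fold change was 0.087 (standard error 0.0610). Stat3 shares 142 exon bases with Stat5a and 554 with Gm46295, both on the opposite strand. The strandedness of the counting was not given in the sources used here, so reads from those stretches cannot be told apart.

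**Figure D1:**
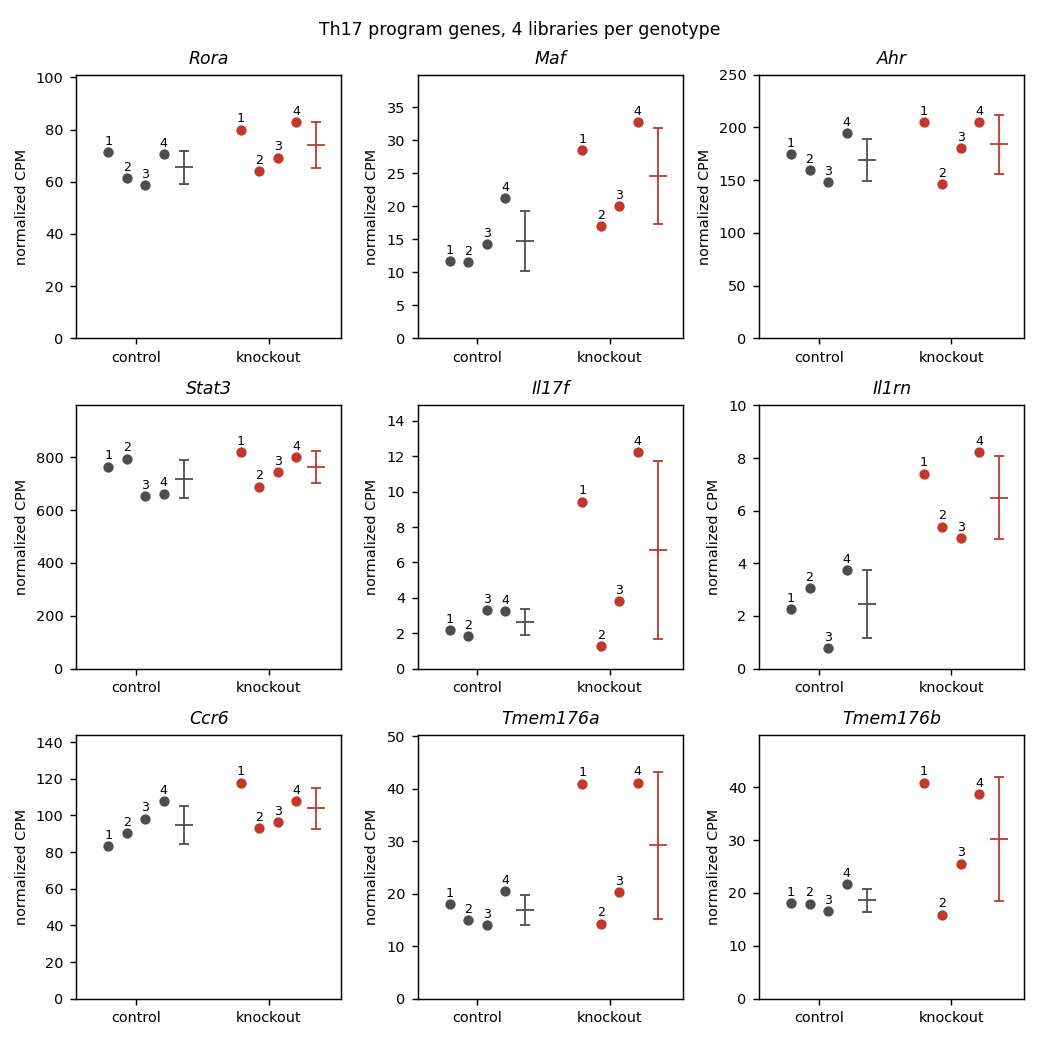
Normalized CPM (y axis, linear, from 0) of the 9 genes in each of the 4 control (grey) and 4 knockout (red) libraries, numbered by replicate, with the mean and SD of each genotype beside them. In all 9 panels knockout libraries 1 and 4 are the highest of the 8 points, and only Il1rn has every knockout library above every control.

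Il17f, Il1rn and Ccr6 encode proteins that are secreted or sit on the cell surface. Their upstream sequence is shown because these 3 were the members with a match to AGGTCA, the core site read by ROR family receptors, within 250 bases upstream of the annotated start. The match may lie on either strand, is in capitals, and reads TGACCT where it lies on the strand opposite to the gene. Each sequence is from GRCm39, runs 5′ to 3′ on the strand of the gene, and ends at the base before the start, at chr1:20854496-20854718 on the minus strand for Il17f (the bases free of annotated exons), at chr2:24226615-24226864 on the plus strand for Il1rn and at chr17:8454619-8454868 on the plus strand for Ccr6.
Il17f: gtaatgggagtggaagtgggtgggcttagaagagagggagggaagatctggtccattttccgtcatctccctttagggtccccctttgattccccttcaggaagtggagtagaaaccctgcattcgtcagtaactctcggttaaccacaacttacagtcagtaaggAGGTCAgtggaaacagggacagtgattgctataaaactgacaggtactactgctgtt
Il1rn: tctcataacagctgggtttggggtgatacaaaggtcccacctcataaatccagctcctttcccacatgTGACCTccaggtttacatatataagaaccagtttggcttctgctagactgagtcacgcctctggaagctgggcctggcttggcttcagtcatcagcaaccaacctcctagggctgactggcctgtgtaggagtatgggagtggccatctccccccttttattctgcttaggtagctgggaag
Ccr6: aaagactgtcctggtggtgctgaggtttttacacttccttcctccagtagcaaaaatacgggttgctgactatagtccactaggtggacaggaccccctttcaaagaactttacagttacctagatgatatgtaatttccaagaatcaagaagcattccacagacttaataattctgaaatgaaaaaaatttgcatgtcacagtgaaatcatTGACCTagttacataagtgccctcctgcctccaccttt
The first base of the match lay 57 bases upstream of the start in Il17f, 182 in Il1rn and 38 in Ccr6. Over the 11910 listed genes with an annotated start, 11.2% had a match in the same window, so 3 of 9 is a description of these letters and not a site. Matches to GCGTG, the core read by AHR, were in 2 of the 9 windows (Stat3 and Il1rn) and in 42.4% of all windows. TTCNNNGAA, which STAT factors read, was in 1 of the 9 (Ccr6) and in 6.64% of all, and TGCTGA, a core site of MAF factors, was in 4 of the 9 (Maf, Stat3, Il1rn and Ccr6) and in 12.5% of all.

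Il17f, a cytokine of Th17 cells, lies on the minus strand at chr1:20847368-20860841. Il17f RNA was low, at 2.19, 1.82, 3.29 and 3.26 CPM in control libraries 1 to 4 and 9.44, 1.25, 3.83 and 12.2 CPM in knockout libraries 1 to 4. These values rest on 32, 25, 47 and 46 counts in the controls and 130, 20, 51 and 180 counts in the knockouts. Knockout libraries 1 and 4 stood far above the rest, while knockout 2 held the lowest value of all 8. The log2 fold change of 1.33 had a standard error of 0.439, and the SD of the knockouts, 5.03 CPM around a mean of 6.69 CPM (n = 4), was close to the mean itself. Its neighbor and close relative Il17a was too low to test, with 3, 2, 4 and 2 counts in the controls and 23, 1, 7 and 5 counts in the knockouts, and knockout 1 held most of them.

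Il1rn (plus strand, chr2:24226865-24241506) encodes the IL-1 receptor antagonist, a secreted protein that occupies the IL-1 receptor without signaling. Il1rn RNA was 2.26, 3.06, 0.771 and 3.75 CPM in the controls and 7.41, 5.39, 4.96 and 8.22 CPM in the knockouts. It was the 1 gene of the 9 whose genotypes did not overlap, and the lowest control value came from the library labelled control 3, with 11 counts. The log2 fold change was 1.40 (standard error 0.300), or 1.10 without the library labelled control 3. Il1r1, which encodes the signaling IL-1 receptor, was too low to test, with 18, 3, 3 and 3 counts in controls and 6, 8, 6 and 16 counts in knockouts.

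Ccr6 (plus strand, chr17:8454869-8475973) encodes the receptor for the chemokine CCL20. Ccr6 had 83.1, 90.2, 98.3 and 108 CPM in the controls and 118, 92.9, 96.4 and 108 CPM in the knockouts. Knockout 1 was highest, knockout 4 and control 4 were level at this rounding, and knockout libraries 2 and 3 lay in the middle of the control range. The log2 fold change was 0.13 (standard error 0.0767). Ccr6 shares 1145 exon bases with Gm33799 on the opposite strand.

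Tmem176a and Tmem176b encode related membrane proteins with reported ion channel activity, known for high expression in Th17 cells and other lymphocytes that make IL-17. They lie head to head on chromosome 6, Tmem176a on the plus strand at chr6:48817813-48824005 and Tmem176b on the minus strand at chr6:48809099-48819233, and 1084 exon bases belong to both. Tmem176a had 18.1, 14.9, 14.1 and 20.5 CPM in control libraries 1 to 4 and 40.9, 14.3, 20.4 and 41.2 CPM in knockout libraries 1 to 4. Tmem176b had 18.1, 18.0, 16.5 and 21.7 CPM in the controls and 40.9, 15.9, 25.6 and 38.6 CPM in the knockouts. In both genes knockout libraries 1 and 4 stood well above every other library, whereas knockout 2 lay at the bottom of the control range or under it. The log2 fold changes were 0.79 (standard error 0.238) and 0.70 (standard error 0.196). Without strand, reads from the shared bases cannot be told apart, so the levels of the pair are uncertain to that extent.

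Levels between genes were set side by side per kilobase of merged exons, in the control mean. On that scale Stat3 had 71.2, Ccr6 38.7, Ahr 27.4, Rora 4.52, Tmem176a 3.53, Tmem176b 2.91, Maf 1.58, Il17f 1.24 and Il1rn 0.444 CPM per kilobase. The ranges over the 4 controls overlapped between Rora and Tmem176a, between Tmem176a and Tmem176b and between Maf and Il17f, and the other neighbors in this order did not overlap. The 4 genes with high levels, Stat3, Ccr6, Ahr and also Rora, had the smallest fold changes, between 0.087 and 0.18 on the log2 scale, and the 5 with lower levels had log2 fold changes between 0.70 and 1.40.

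The median log2 fold change over the 9 genes was 0.70, beside a median of 0.0013 over all 11317 tested genes. By size of log2 fold change Il1rn ranked 9, Il17f 11, Tmem176a 62, Maf 78, Tmem176b 89, Rora 978, Ccr6 1420, Ahr 1576 and Stat3 2208 among the tested genes. By the quasi-likelihood test of edgeR at an adjusted p under 0.05 (Benjamini-Hochberg, 11317 genes), 0 of the 9 were called higher, beside 0.0619% of all genes (7 genes). By DESeq2's adjusted p the count was 1 (Il1rn), beside 81 of all tested genes in either direction. In edgeR 6 of the 9 had an unadjusted P under 0.05, a cutoff whose share of all genes was not counted. With the looser cutoff of an unadjusted P under 0.05 and a 1.2-fold change, 5 of the 9 were called higher, Maf, Il17f, Il1rn, Tmem176a and Tmem176b, beside 1.78% of all genes. In 1 of the 9 every knockout library lay above every control, which held for 2.25% of all genes. Since the genes were chosen by this contrast, nothing is read from these counts.

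The genes also varied among libraries of the same genotype. The selection was not independent of this variation, because the difference of most of the 9 genes rested mainly on knockout libraries 1 and 4. Knockout libraries 1 and 4 were the highest 2 of the 8 libraries in all 9 genes, a pattern found in 6.84% of the tested genes. That pattern partly overlaps the selection for a higher knockout mean, and among the 196 other genes called higher at the looser cutoff it was found in 110, or 56.1%. Knockout 2 was the lowest knockout library in 8 of the 9 genes, as in 25.5% of all tested genes, and knockout 3 in Il1rn. Knockout 2 lay above all controls in 1 of the 9 genes and knockout 3 in 3, Il17f, Il1rn and Tmem176b. The shares of all genes with knockout 2 or knockout 3 above all controls were not counted. Among the controls, which the choice of a direction does not order, control 4 was the highest in 6 of the 9 (27.1% of all genes) and the library labelled control 3 the lowest in 6 of the 9 (27.8% of all genes).

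Within-genotype correlations put this on a single scale. For each gene the genotype mean of log2 CPM was subtracted, and Pearson's r was taken between genes over the 8 libraries. Over the 36 pairs the mean r was 0.632 and the median 0.686, with 35 pairs above 0 and 25 above 0.5. These points share their libraries, total counts and genotype means, and r is given with no test. Genes selected for a high knockout mean can share the same high knockout libraries. No mean r of other genes was computed for comparison. The highest r, 0.974, was that of Tmem176a with Tmem176b, whose exons overlap. Pairs on different chromosomes followed closely, with 0.935 for Il17f and Tmem176b, 0.930 for Rora and Ahr, 0.914 for Il17f and Tmem176a and 0.891 for Maf and Ccr6.

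Stat3 and Il1rn went least with the others. Each gene's r with the mean of the other 8 was 0.976 for Tmem176a, 0.966 for Tmem176b, 0.941 for Ahr, 0.876 for Rora, 0.838 for Il17f, 0.791 for Maf, 0.636 for Ccr6, 0.517 for Il1rn and 0.418 for Stat3. The pair of Stat3 and Ccr6 had the lowest r of all pairs, at −0.0475, and Stat3 with Maf stood at 0.0048. Without knockout libraries 1 and 4 the mean r over pairs was 0.385, and leaving out single libraries gave between 0.519 and 0.711.

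**Figure D2:**
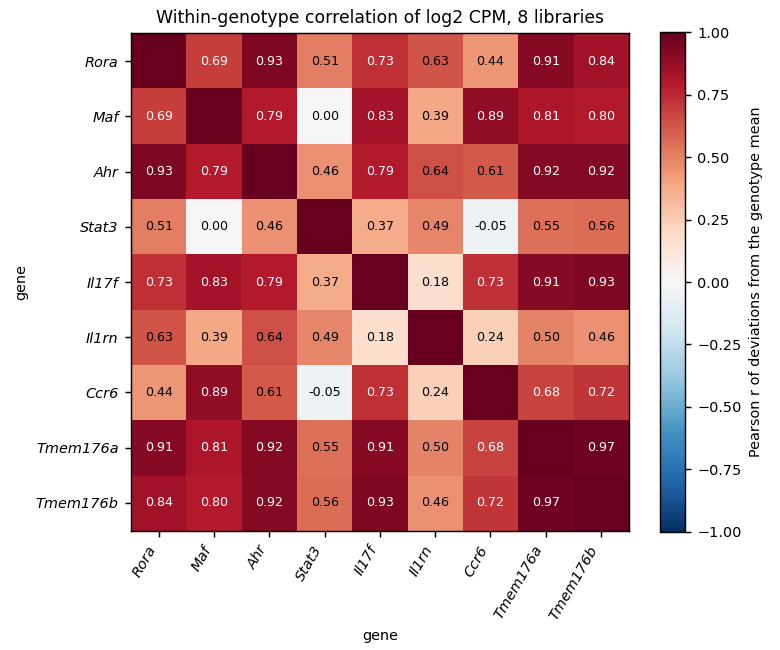
Pearson's r between the 9 genes over 8 libraries, computed on log2 CPM after subtracting the mean of each genotype; color and printed value give r from −1 to 1. Tmem176a, Tmem176b, Ahr, Rora and Il17f form the block of high r, and the rows of Stat3 and Il1rn are the palest.

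When knockout libraries 1 and 4 were left out together, a choice made after their values were seen, 2 knockout libraries remained against 4 controls. The log2 fold changes were then 0.024 for Rora, 0.33 for Maf, −0.057 for Ahr, −0.0061 for Stat3, −0.084 for Il17f, 1.07 for Il1rn, −0.0034 for Ccr6, 0.028 for Tmem176a and 0.15 for Tmem176b. The values of Ahr, Stat3, Il17f and Ccr6 thus changed sign, but each was smaller in size than the gene's standard error with all 8 libraries. These 4 are read as near 0 and not as lower, and Il1rn kept most of its difference. The median over the 9 genes was 0.024 in place of 0.70. Leaving out the library labelled control 3 kept the direction of all 9, with log2 fold changes of 0.13 for Rora, 0.73 for Maf, 0.061 for Ahr, 0.043 for Stat3, 1.46 for Il17f, 1.10 for Il1rn, 0.15 for Ccr6, 0.71 for Tmem176a and 0.64 for Tmem176b.

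**Figure D3:**
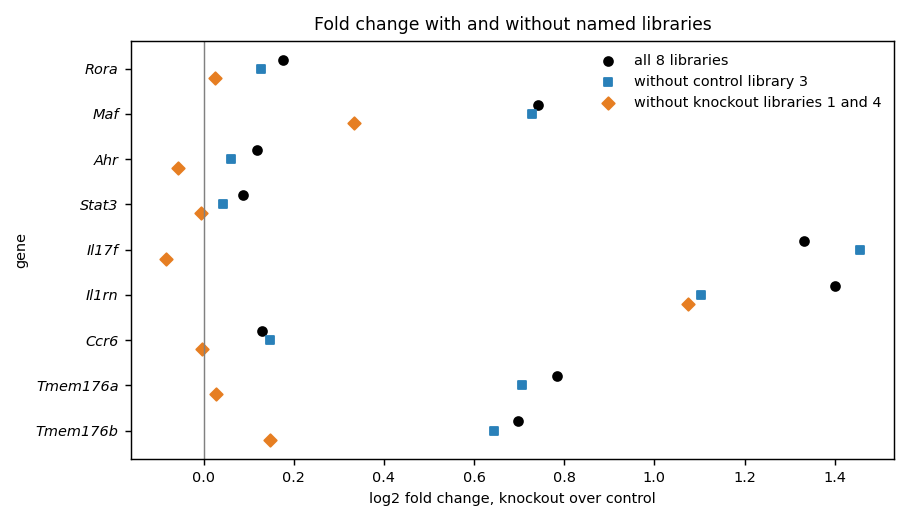
Log2 fold change of knockout over control (x axis) for the 9 genes with all 8 libraries (black circles), without control library 3 (blue squares) and without knockout libraries 1 and 4 (orange diamonds). The diamonds of 7 genes lie between −0.084 and 0.15, while Maf is at 0.33 and Il1rn at 1.07.

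Foxp3, the lineage factor of Tregs, and Klf2, a zinc finger factor that sustains lymphocyte trafficking genes, ran against the 9 genes. Klf2 had 51.2, 58.9, 63.0 and 54.6 CPM in the controls and 22.2, 45.3, 44.3 and 24.4 CPM in the knockouts, with no overlap between genotypes (exact permutation test, two-sided, p = 0.0286, the smallest that 4 against 4 libraries allow). The lowest Klf2 was in knockout libraries 1 and 4, the highest in the 9 Th17 genes. The log2 fold change of Klf2 was −0.74 (standard error 0.161), its adjusted p in edgeR's test was 0.0617, and its within-genotype r with the mean of the 9 genes was −0.897. Over the alternative settings its log2 fold change ran from −0.92 to −0.35. Without knockout libraries 1 and 4 its adjusted p in edgeR's test was 0.661.

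Foxp3 had 117, 122, 107 and 93.8 CPM in the controls and 77.2, 105, 93.2 and 78.1 CPM in the knockouts. Knockout libraries 1 and 4 were the lowest here too, and control 4, the highest control in 6 of the 9 Th17 genes, was the lowest control. Foxp3 values overlapped between genotypes (exact permutation test, two-sided, p = 0.0571), and the log2 fold change of −0.31 had an adjusted p of 0.152 in edgeR's test. Over the alternative settings that fold change ran from −0.41 to −0.15, and the adjusted p was highest without knockout libraries 1 and 4. The within-genotype r of Foxp3 with the mean of the 9 genes was −0.860. Of the 9621 genes compared (mean of at least 5 CPM), 15.1% had an r below −0.5, a looser bound. The shares beyond the r of Foxp3 or of Klf2 were not counted. In RNA of whole cultures fewer Foxp3+ cells and less Foxp3 RNA per cell cannot be told apart, and the same holds for more Th17-like cells and more Th17 RNA per cell. By flow cytometry at a later time of culture, the study reported a lower frequency of Foxp3+ cells from knockout mice. For Tdrd3 itself r with the mean of the 9 genes was 0.454.

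**Figure D4:**
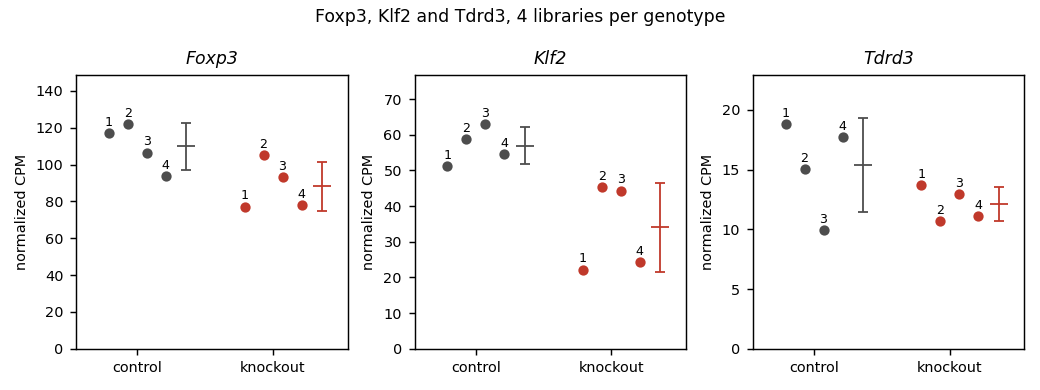
Normalized CPM (y axis, linear, from 0) of Foxp3, Klf2 and Tdrd3 in the 4 control (grey) and 4 knockout (red) libraries, numbered by replicate, with mean and SD beside them. Knockout libraries 1 and 4 hold the lowest Foxp3 and Klf2, and the library labelled control 3 is below every knockout library in Tdrd3.

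The other genes of the pathway were taken from 7 lists with 114 genes outside the 9, of which 101 were listed and 96 tested. By edgeR's adjusted p 0 of the 96 were called in either direction, beside 0.0619% of all genes called higher and 0.203% (23 genes) called lower. At an unadjusted P under 0.05 edgeR gave 18 higher and 9 lower. The share of all genes at that cutoff was not counted, so nothing is read from these 2 counts. DESeq2's adjusted p called 3 of the 96, Gpr15 (higher) and S1pr1 (lower) among them, beside 81 of all tested genes. At the looser cutoff 12 of 96 were called higher, beside 1.78% of all genes, and 5 of 96 lower, beside 1.7% of all genes. The lists were chosen with earlier results of these data known, so the counts in this paragraph are a description only. In 3 of the 96 every knockout library lay above the controls and in 4 below, beside 2.25% and 2.63% of all genes. The median log2 fold change of the 96 was 0.033. Without knockout libraries 1 and 4 the counts at the looser cutoff were 3 higher and 2 lower, and knockout libraries 1 and 4 both exceeded knockout libraries 2 and 3 in 42 of the 96 genes (19.9% of all tested genes) and both fell short of them in 23 (19.8%).

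Of 17 further Th17 transcription factors, 4 were called higher at the looser cutoff and 0 lower. Among these were Fosl2, an AP-1 subunit, with a log2 fold change of 0.54, Cebpb, a leucine zipper factor, with 0.35, and Rbpj, the DNA-binding partner of Notch, with 0.27. Fosl2 had 40.7, 41.7, 29.4 and 36.3 CPM in the controls and 65.6, 37.2, 50.1 and 63.6 CPM in the knockouts. Fosl2 values overlapped between genotypes (exact permutation test, two-sided, p = 0.0857), and its adjusted p in edgeR's test was 0.0998. Its log2 fold change ran from 0.23 to 0.69 over the alternative settings. Irf4 and Batf, pioneer-like factors of Th17 cells, were not called, with log2 fold changes of 0.11 and −0.039. Ikzf1, with a log2 fold change of −0.099, was under the 1.2-fold cutoff although its genotypes did not overlap.

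Among 11 listed cytokines and secreted products outside the 9, 9 were tested and 2 were called higher, Il9 (log2 fold change 0.76), a mast cell and T cell growth factor, and Lta (0.27), which encodes lymphotoxin α. Il9 had 25.1, 20.8, 21.6 and 21.4 CPM in the controls and 51.9, 22.5, 23.4 and 53.2 CPM in the knockouts. Only knockout libraries 1 and 4 lay above the control range. Without those libraries its log2 fold change was 0.043. Csf2, the gene of GM-CSF, stood at −0.14 on the log2 scale with a standard error of 0.409. Il21, Il22 and Il23r were not analysed here. Of the 15 genes of this list outside the 9, 11 were in the count table, which held only genes with a maximum of at least 10 counts.

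In the list of IL-6, IL-21, IL-23 and IL-1 signaling, 16 genes were tested, 1 was called higher and 1 lower. Il12rb1, a receptor chain shared by IL-12 and IL-23, had a log2 fold change of 0.29, and Il18r1, a receptor chain for IL-18, had −0.50. Il6ra, the IL-6 receptor chain upstream of STAT3, stood at −0.17 with a standard error of 0.0560, and Socs3, a feedback inhibitor that STAT3 induces, at 0.037 with a standard error of 0.126. Both were under the 1.2-fold cutoff.

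Of 12 tested surface and target genes of Th17 cells, Gpr15, a homing receptor of colon T cells, Cd5l, a regulator of lipid metabolism in Th17 cells, and Abcb1a, a drug and bile acid efflux pump, were called higher, with log2 fold changes of 0.68, 0.96 and 0.53. Over the alternative settings these ran from 0.37 to 0.81, from 0.28 to 1.19 and from 0.13 to 0.65. For all 3 genes the adjusted p was highest without knockout libraries 1 and 4. Cd5l rests on 38, 30, 40 and 55 counts in the controls and 119, 45, 56 and 101 counts in the knockouts. Gpr15 had 9.24, 8.80, 8.41 and 12.4 CPM in the controls and 15.6, 11.7, 13.5 and 21.4 CPM in the knockouts. Control 4, again the highest control, exceeded knockout 2 only (exact permutation test, two-sided, p = 0.0571), and the adjusted p of Gpr15 was 0.0913 in edgeR's test. S1pr1, the receptor that lets T cells leave lymphoid organs and a target of KLF2, was the 1 called lower, with a log2 fold change of −0.27 and an adjusted p of 0.0671, and its genotypes did not overlap.

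Genes that act with AHR or are induced by it gave 0 calls of 11 tested at the looser cutoff, and 0 also at an unadjusted P under 0.05 alone or by DESeq2's adjusted p. Ahrr, a repressor induced by AHR, stood at 0.36 with a standard error of 0.190, and Cyp1a1, the classical AHR target, at −0.10 with a standard error of 0.157. The chaperone Hsp90ab1 had knockout values above all controls, but by a log2 fold change of 0.060 only.

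In TGF-β signaling, 1 of 14 tested genes was called higher and 1 lower. Smad3, a receptor-activated SMAD, had 20.5, 20.2, 19.1 and 19.8 CPM in the controls and 26.4, 26.0, 24.7 and 22.8 CPM in the knockouts, with all 4 knockouts above the controls (exact permutation test, two-sided, p = 0.0286). That separation held for 2.25% of all genes, and Smad3 was named for its small P in these same libraries. Unlike the Th17 genes, Smad3 was high in knockout 2 and lowest in knockout 4. Its log2 fold change was 0.33, with an adjusted p of 0.0913 in edgeR's test, and it ran from 0.30 to 0.37 over the alternatives. Lrrc32, which encodes GARP, the Treg surface protein that holds latent TGF-β, was called lower with a log2 fold change of −0.38 and without overlap.

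Among 19 tested factors that restrain Th17 genes, Foxp3 and Klf2 were called lower and Gfi1, a zinc finger repressor, was called higher, with a log2 fold change of 0.31. Gfi1 had 20.0, 20.1, 16.1 and 23.8 CPM in the controls and 29.3, 18.4, 22.8 and 28.4 CPM in the knockouts, again with knockout libraries 1 and 4 on top. Gfi1 values overlapped between genotypes (exact permutation test, two-sided, p = 0.200), and without knockout libraries 1 and 4 the log2 fold change of Gfi1 was 0.042.

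**Figure D5:**
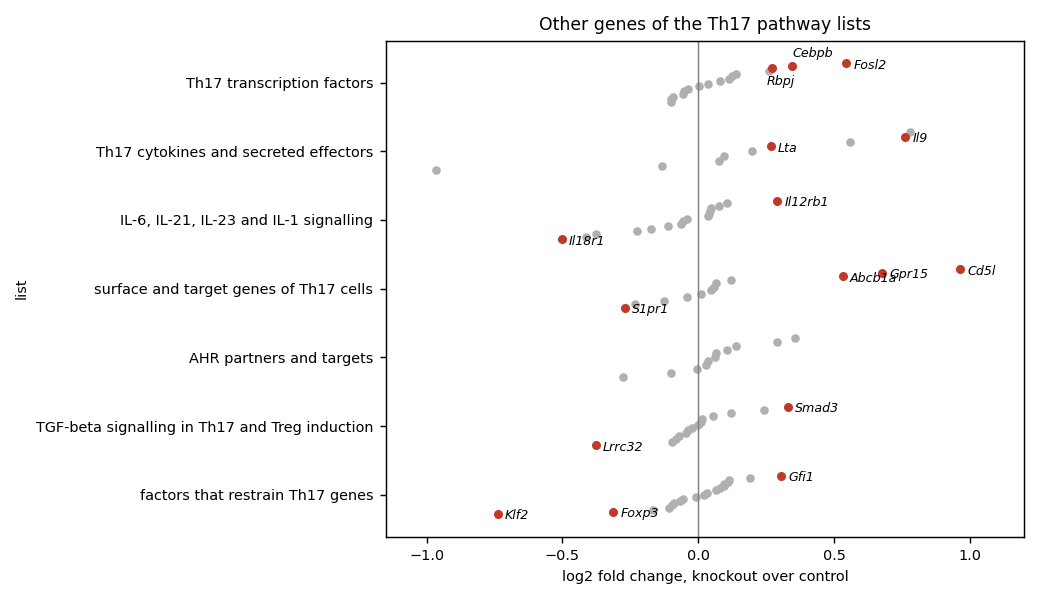
Log2 fold change of knockout over control (x axis) for 95 of the 96 tested genes of the 7 pathway lists, 1 point per gene, with genes at an unadjusted P under 0.05 and a 1.2-fold change in red and named, and list order from top to bottom on the y axis. Of the 16 red points 11 lie right of 0 and 5 left of it, and the largest, Cd5l, is at 0.96.

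The genes outside the 9 whose within-genotype deviations followed the 9 most closely, over 8 libraries and among 9621 genes, were Il21r (r = 0.993), Bhlhe40 (0.989), Cd6 (0.987), Camsap2 (0.977) and Cdk17 (0.977). Bhlhe40, a basic helix-loop-helix repressor of activated T cells, had 502, 500, 488 and 547 CPM in the controls and 684, 558, 620 and 687 CPM in the knockouts. Its genotypes did not overlap (exact permutation test, two-sided, p = 0.0286), and with a log2 fold change of 0.32 and an adjusted p of 0.0148 in edgeR's test it rose. That call was lost without control 1, control 2, the library labelled control 3, knockout 1 or knockout 4, with an adjusted p between 0.0566 and 0.115, and without knockout libraries 1 and 4 together it was 0.844. Il21r, the receptor for IL-21, went with the 9 genes among libraries but had a log2 fold change of 0.077 only, with an adjusted p of 0.744. The most opposite were Hjurp (r = −0.989), Dock10 (−0.985), Cby1 (−0.983), Eci1 (−0.977) and Pdcd4 (−0.975), none of which was called by the adjusted p. Likeness over 8 libraries that differ along few axes is a ranking and says nothing of shared function.

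Markers of other cell types were read in the same libraries. Of 7 genes of γδ T17 and innate-like T cells and of 4 red cell genes 0 were among those analysed here. The CD8 T cell genes Cd8a and Cd8b1 summed to between 7.72 and 21.8 CPM in controls and between 6.68 and 8.35 CPM in knockouts, with the top value in the library labelled control 3. B cell genes (3 of 5 measured, with Cd79b and Pax5 the most abundant) summed to between 1.92 and 3.71 CPM in controls and between 1.09 and 2.93 CPM in knockouts. The top B cell sum was also in the library labelled control 3, where Pax5 had 23 counts, beside 3, 3 and 6 in the other controls. The NK and innate lymphoid list (4 of 7 measured, led by Id2 and Il18r1, both also expressed by T cells) summed to between 42.7 and 54.5 CPM in controls and between 38.7 and 47.4 CPM in knockouts. Its top value was in the library labelled control 3 as well, whereas the myeloid and dendritic sums were not highest there.

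Among markers of antigen-presenting cells Lyz2 and Batf3 were highest in knockout libraries 1 and 4, as the Th17 genes were, whereas Cd68, Cd74 and H2-Ab1 did not follow that order. Of 8 myeloid genes only Cd68 and Lyz2 were among those analysed, and they summed to between 0.479 and 1.16 CPM in controls and between 0.439 and 2.11 CPM in knockouts. Cd68 had 0.479, 1.16, 0.491 and 1.13 CPM in the controls and 0.436, 0.439, 0.451 and 0.883 CPM in the knockouts. Lyz2, which encodes lysozyme of macrophages and granulocytes, had 0 counts in every control, 9 counts in knockout 1, 18 counts in knockout 4 and 0 after rounding in knockout libraries 2 and 3. Knockout libraries 1 and 4 were also the highest in all 9 Th17 genes. The dendritic list (3 of 7 measured) summed to between 67.8 and 75.7 CPM in controls and between 76.0 and 86.8 CPM in knockouts, highest in knockout libraries 1 and 4. Cd74, the invariant chain of MHC class II, made up most of that sum, with 54.3, 60.2, 58.7 and 63.2 CPM in the controls and 63.3, 61.1, 56.8 and 59.8 CPM in the knockouts, and it did not follow knockout libraries 1 and 4. Of the other genes Batf3, which activated T cells also express, had a log2 fold change of 0.82 and an adjusted p of 0.0676 in edgeR's test, and H2-Ab1 had 0.37 and 0.517. H2-Ab1 stood at 7.87, 9.60, 7.85 and 5.45 CPM in the controls and 9.66, 7.27, 11.50 and 11.48 CPM in the knockouts, highest in knockout 3. The naïve T cell list (7 of 7 measured) summed to between 1256.4 and 1417.6 CPM in controls and between 1227.9 and 1275.2 CPM in knockouts, with 3 genes called lower, Klf2 and S1pr1 among them, at the looser cutoff. The T cell activation list (10 of 10 measured) summed to between 5425.5 and 5507.6 CPM in controls and between 5245.5 and 5323.5 CPM in knockouts, so that every knockout library lay below every control. Il2ra, the IL-2 receptor α chain, was the largest part of that sum and had a mean of 2268.5 CPM in controls and 2075.6 CPM in knockouts. The median log2 fold change of the 10 genes was −0.011, so the lower sum does not describe the list as a whole. Of the genes in this list 0 were called at the looser cutoff. At an unadjusted P alone in edgeR 1 was higher and 2 were lower, and the share of all genes was not counted. Il2ra was called lower by DESeq2's adjusted p. The part of other cell types or of the state of activation in the values of the 9 genes was not tested.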

How the data were processed

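The authors aligned the reads of 8 libraries to GRCm39 with STAR 2.7.8a, quantified genes in Partek Flow (E/M method) and deposited estimated counts, filtered and not normalized, for 11911 genes. The lowest maximum of a listed gene was 10 counts, and 43.0% of values were not whole. The strandedness and the annotation version were not given in the sources used here.

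Counts were rounded, filtered with filterByExpr (minimum count 10), scaled by TMM (factors 0.993 to 1.00) and fitted for genotype with edgeR 4.0.16 (quasi-likelihood, R 4.3.3), after a test on simulated data, and 594 genes were left out as low. Exact permutation tests used log2(CPM + 0.5) and all 70 arrangements, and their p are not adjusted for the number of genes. Smad3, Fosl2, Gpr15 and Gfi1 were named for a small edgeR P in the same 8 libraries, so their exact tests are not independent of that choice. Correlations used log2 CPM with a prior count of 2. Coordinates and starts came from GENCODE M39, and the 250 bases upstream of each canonical start were searched on both strands. The 9 genes and all lists were chosen with earlier results of these data known.

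Named genes were the 9, Tdrd3, Il17a, Il21, Il22, Il23r, Il1r1, Foxp3 and Klf2, in each list up to 4 genes of smallest P at the looser cutoff, the 5 most alike and 5 most opposite in within-genotype deviation, and the 2 most abundant markers of each other cell type. Irf4, Batf, Ikzf1, Csf2, Il6ra, Socs3, Ahrr, Cyp1a1, Hsp90ab1, Il2ra and Stat5a are outside this rule and were named after their values were seen. Some genes of the lists are not reported here. Libraries of a genotype were not duplicates (chi-square per degree of freedom of 2.59 to 6.29 between their counts).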

Additional observations from a re-analysis of the deposited data

Results flagged for a closer look

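Of 84 groups of 4 libraries examined for a sample far from the others, 3 held one, and chance alone flags about 1 in 20 such groups. The gap to the nearest library, divided by the range of the group, exceeded Dixon's 95% critical value for 4 samples in each. Cd8a stood at 11.3 CPM in the library labelled control 3, beside 0.873 to 1.37 CPM in the other controls. This is also the library whose Tdrd3 level went against its label. Pdcd4 stood at 184.8 CPM in control 4, beside 203.8 to 206.8 CPM, and S1pr1 at 51.4 CPM in control 4, beside 57.5 to 58.6 CPM. Control 4 was the highest control in 6 of the 9 Th17 genes. None of the 9 genes themselves was among the 3.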

How the results depend on the processing

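The settings tried were testing all listed genes, requiring 10 counts in all 8 libraries, scaling by DESeq2 size factors or by totals alone, DESeq2 itself, the replicate block, each library left out in turn and, chosen after seeing the data, knockout libraries 1 and 4 left out together. Of the values recomputed, 206 kept their direction within a tolerance: 1 SD between libraries of a genotype for a log2 fold change, 1.5 times for a count and 0.1 for the mean r. That tolerance is wide for a small fold change, and some of these values changed by over 1.5 times. DESeq2 called 3 pathway list genes and 81 genes in all by adjusted p, in place of 0 and 30 in edgeR. The replicate block gave 10 and 87. Same-numbered libraries correlated between −0.046 and 0.069 in their deviations, and 1 of 8 was closest to its own number, so the libraries share only a number. Leaving out single libraries gave 0 to 15 pathway list genes by adjusted p (8 without control 4, 15 without knockout 2), and 6 to 162 genes in all (162 without knockout 2, 90 without control 4, 6 to 19 without any other). At the looser cutoff they gave 7 to 15 pathway list genes higher and 3 to 6 lower (fewest without knockout 4), and a mean r between members of 0.519 (without knockout 2) to 0.711.

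Without knockout libraries 1 and 4 together, the log2 fold changes of Ahr (−0.057), Stat3 (−0.0061), Il17f (−0.084) and Ccr6 (−0.0034) changed sign. Each of these was smaller in size than its standard error with all 8 libraries. Those of Tmem176a (0.028) and Tmem176b (0.15) and the median of the 9 (0.024) moved by more than 1 SD between libraries. Rora (0.024, in place of 0.18) and Maf (0.33, in place of 0.74) also shrank, by less than 1 SD. Pathway list genes were then 3 higher and 2 lower, genes in all 3 by adjusted p and 235 at the looser cutoff, and the mean r was 0.385. That setting has fewer libraries, and the cause of the other shifts was not tested. Il1rn, Il17f, Il17a, Il1r1, Cd5l and Lyz2 rest on few counts, and intervals from counts would cover counting error only.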
